A study of Mus musculus with 6 samples.

Results

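Mitochondrial carriers of the Slc25 family were examined in soleus, the slow oxidative muscle of the calf, taken from 3 Control and 3 cKO mice. The members were the genes whose array feature carried a single symbol of the form Slc25a followed by a number, with 1 feature a gene. There were 46 such genes among 30142 genes with a feature of 1 symbol, and each of the 46 had 1 feature. The Control mice were labelled wild type. The cKO mice were labelled as a knockout of Mbtps1, the gene of site-1 protease, made with DMP1 Cre, a recombinase driven by regulatory sequence of a gene best known from osteocytes of bone. All 6 were males aged 39 to 41 weeks, described in the series title as littermates, and soleus from each leg was frozen. Each mouse gave 1 array. The values are read as log2 signals, so a difference of 1 is a doubling.

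Slc25 proteins sit mostly in the inner mitochondrial membrane and move metabolites that the membrane would otherwise hold back. In muscle, one set exchanges ADP for ATP and brings in phosphate, so that oxidative phosphorylation can supply the contracting fibre. Others carry di- and tricarboxylates, amino acids, acylcarnitines, nucleotides, cofactors and iron. Most are built from repeats of one structural unit, and closely related members can therefore share probe sequence. Probe sequences were not used here, so values of Slc25a4, Slc25a5 and Slc25a31, the ADP/ATP carriers, are uncertain to that extent.

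The arrays correlated between 0.970 and 0.995 over the features tested. Control array medians were 4.13, 4.02 and 4.08, and those of cKO 4.37, 4.03 and 4.0, in replicate order. The mice carried numbers in a low range (715, 716 and 733, which are Control 1, Control 2 and cKO 1) and a high range (776, 779 and 780, which are Control 3, cKO 2 and cKO 3). The labels do not say what a range marks. Mbtps1 itself stood at 7.39, 7.05 and 7.24 in Control and 7.77, 7.44 and 7.11 in cKO, a difference of 0.21 (SE 0.21, limma adjusted p = 0.999). Neither the cells of soleus in which the Cre acts nor the exons of Mbtps1 that the probes cover are given in the sources used here, so this does not check the labels. All 10 skeletal muscle markers were measured, and their mean signal lay between 17.15 and 17.33 on every array. Acta1, at 19.77 to 19.93, stood at the maximum of each array, where the scale has a ceiling, and Atp2a2 and Ckm were near it. Signals at a ceiling can vary little, so this range does not show equal muscle content.

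Of the 46 genes, 36 exceeded the array median on 3 or more arrays and were tested. In the comparison of cKO with Control, 0 of the 36 passed an adjusted p of 0.05 in limma. Over all 33334 features tested the count was also 0 (a background of 0%), and it was 14 without Control 3, none of them an Slc25 gene. Without adjustment, 3 of the 36 had a limma p under 0.05, against 4.50% of all features tested. These were Slc25a44 and Slc25a23, with higher means in cKO (3.70% of all features were higher at that p), and Slc25a36, with a lower mean (0.807% of all features). The count of 3 was 1 after quantile normalization, where Slc25a36 alone stayed under 0.05, and 6 with array weights. None of the 36 (0) had both a 1.5-fold difference and an unadjusted p below 0.01, a pair of limits met by 0.669% of all features. The 95% intervals of the differences reached 0.26 to 0.98 log2 units to either side, with a median of 0.46, and 30 of the 36 lay wholly between -1 and 1. In whole muscle, fewer cells of a type and less RNA per cell cannot be told apart.

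Slc25a36 exchanges pyrimidine nucleotides between the matrix and the cytosol. Control arrays gave log2 signals of 9.11, 8.99 and 9.35 in the order of their replicate numbers, and cKO arrays gave 8.49, 8.43 and 8.82. Every cKO array lay below every Control array. The difference was -0.57 (SE 0.20, 95% interval from -1.04 to -0.10, limma adjusted p = 0.999), which is 1.48-fold lower in cKO. Mice of the low number range alone gave -0.56 and those of the high range -0.73, where the lack of overlap fixes the shared sign. Quantile normalization gave -0.66. Leaving out Control 1, Control 3, cKO 1 or cKO 2 brought the unadjusted limma p above 0.05, with differences between -0.59 and -0.47.

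Slc25a44, a carrier of branched-chain amino acids, stood at 7.33, 6.75 and 7.11 in Control and 7.81, 7.59 and 7.74 in cKO. All cKO arrays were above all Control arrays, and the Control arrays were spread more widely (SD 0.29, n = 3) than the cKO arrays (SD 0.11, n = 3). The difference of 0.65 (SE 0.19, 95% interval from 0.19 to 1.11, limma adjusted p = 0.999) is 1.57-fold. Slc25a44 differed by 0.77 among low-numbered and by 0.55 among high-numbered mice, and the lack of overlap fixes that shared sign. With each array left out in turn its unadjusted limma p stayed under 0.05, and after quantile normalization it did not, both in the plain fit (0.50) and with a block for number range (0.53).

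Slc25a23 encodes a carrier that exchanges ATP-Mg for phosphate and is regulated by calcium through its EF-hand domain. It was at 7.59, 7.18 and 7.49 in Control and at 7.80, 8.09 and 8.58 in cKO. The groups did not overlap, and cKO 3 was the highest array. The difference was 0.73 (SE 0.24, 95% interval from 0.15 to 1.32, limma adjusted p = 0.999), or 1.66-fold. It came to 0.41 in the low and 0.84 in the high number range, again with a sign fixed by the lack of overlap. The unadjusted limma p was above 0.05 after quantile normalization, where Slc25a23 differed by 0.60, as well as after centring on array medians (0.68), after quantile normalization with the number range as a block (0.51), without Control 2 (0.62) and without cKO 3 (0.52).

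**Figure D1:**
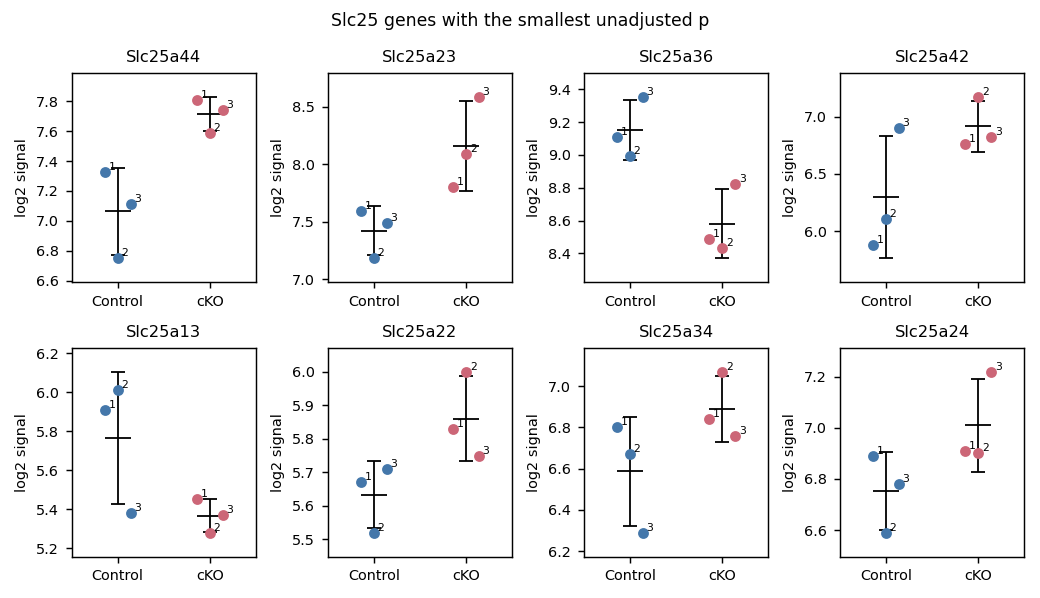
Log2 signal (vertical axis, a separate scale for each gene) on each array for the 8 Slc25 genes with the smallest unadjusted limma p. Points are numbered by replicate, and bars give the mean and SD of 3 arrays. Slc25a44, Slc25a23, Slc25a22 and, by a narrow margin, Slc25a24 have all cKO arrays above all Control arrays. Slc25a36 has all below, and Slc25a42 has Control 3, at 6.90, inside the cKO range.

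The 2 genes next by p overlapped between groups. Slc25a42 imports coenzyme A into the matrix in exchange for adenine nucleotides. Its signal was 5.88, 6.11 and 6.90 in Control and 6.76, 7.17 and 6.82 in cKO, so Control 1 and Control 2 were low and Control 3 lay among the cKO arrays. It differed by 0.62 (SE 0.29, limma adjusted p = 0.999). The low number range gave 0.76 and the high range 0.092. Without Control 3 the difference was 0.92 and its unadjusted limma p was under 0.05, as it was with array weights (0.91). Slc25a13, called citrin, exchanges aspartate for glutamate in the malate-aspartate shuttle. Its values were 5.91, 6.01 and 5.38 in Control and 5.45, 5.28 and 5.37 in cKO. Control 1 and Control 2 were the high arrays, and Control 3 lay within the cKO range. The difference of -0.40 (SE 0.19, limma adjusted p = 0.999) was -0.51 in the low and -0.050 in the high number range. Without Control 3 it was -0.59, and that value and the -0.51 from array weights had an unadjusted limma p under 0.05.

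Promoter sequence was looked at for the members at either end of the differences. The RefSeq promoter table (GRCm38.p6, 250 bases before to 50 bases after each start) held 36 of the 46 genes. Slc25a44, also higher in cKO, was not among them, so the upper end is incomplete. The 250 bases before the start are shown for Slc25a36 and Slc25a13, the 2 genes with the lowest differences, and for Slc25a23, the gene with the highest, 5′ to 3′ on the minus strand in each case. Capitals mark the E-box CACGTG. The windows are chr9:97111042-97111291 for Slc25a36, chr6:6217174-6217423 for Slc25a13 and chr17:57059864-57060113 for Slc25a23, for which the first of 2 starts in the table is given.
Slc25a36: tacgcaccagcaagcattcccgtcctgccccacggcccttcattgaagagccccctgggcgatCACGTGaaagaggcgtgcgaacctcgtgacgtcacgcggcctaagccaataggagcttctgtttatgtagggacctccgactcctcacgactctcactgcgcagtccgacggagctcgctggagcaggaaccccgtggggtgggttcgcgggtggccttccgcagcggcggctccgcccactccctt
Slc25a13: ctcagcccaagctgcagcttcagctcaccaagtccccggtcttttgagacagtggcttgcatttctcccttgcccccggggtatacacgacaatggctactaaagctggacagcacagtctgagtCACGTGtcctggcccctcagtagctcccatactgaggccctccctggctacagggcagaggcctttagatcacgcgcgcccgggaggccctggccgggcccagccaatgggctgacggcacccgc
Slc25a23: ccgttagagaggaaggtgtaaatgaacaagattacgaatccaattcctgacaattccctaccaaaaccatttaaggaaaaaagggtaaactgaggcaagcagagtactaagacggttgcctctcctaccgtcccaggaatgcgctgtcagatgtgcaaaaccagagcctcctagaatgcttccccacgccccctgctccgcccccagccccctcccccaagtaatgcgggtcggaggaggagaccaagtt

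The E-box CACGTG, which reads the same on both strands and is bound by several families of transcription factors including those of the clock, was in the promoters of 7 of the 36 genes (19.4%), against 8.09% of 27025 genes with a promoter in the table. The 7 were Slc25a1, Slc25a13, Slc25a14, Slc25a15, Slc25a31, Slc25a33 and Slc25a36, and 5 of them were tested. In Slc25a36 the match began at position -187 from the start, and in Slc25a13 at position -125. Among the tested genes with a match, Slc25a15, an ornithine carrier, differed by -0.16 (SE 0.20), Slc25a1 by 0.073 (SE 0.16) and Slc25a33 by 0.13 (SE 0.24), none of which passed. The core GCATGCG of sites for NRF1, a regulator of mitochondrial genes, was found on either strand in 2 of the 36 (Slc25a31 and Slc25a54, both below the filter), against 4.01% of all genes. The core AAGGTCA of sites for estrogen-related receptors was in 1 of the 36, Slc25a34, against 5.38% of all genes. No match in Slc25a31 for one motif overlapped a match for another. These matches describe letters in the window and do not show binding.

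Carriers that exchange ADP for ATP and bring phosphate into the matrix gave differences close to 0 for 2 of their 3 tested genes. Slc25a4 is the ADP/ATP carrier of heart and skeletal muscle. Its log2 signal was 17.38, 17.56 and 17.51 in Control and 17.35, 17.52 and 17.51 in cKO, and the groups overlapped throughout. The difference was -0.025, with a 95% interval from -0.40 to 0.35, and was 0.054 after quantile normalization. Its values lay at least 2.31 below the array maxima, where the scale has a ceiling. Slc25a3, the phosphate carrier, was at 9.12, 8.91 and 8.92 in Control and 9.02, 8.99 and 8.98 in cKO, with a difference of 0.014 (95% interval from -0.37 to 0.40). That sign turned under quantile normalization (-0.068) and centring on array medians (-0.044). Slc25a5 is the more widely expressed ADP/ATP carrier. Its signal was 12.81, 12.85 and 11.81 in Control and 12.53, 12.57 and 12.81 in cKO, so Control 3 stood apart below the other 5 arrays. Slc25a5 differed by 0.15 (SE 0.32), by -0.30 in the low range, by 0.88 in the high range, where Control 3 is the only Control array, and by -0.19 without Control 3. Slc25a31, the carrier known from testis, lay below the filter at 3.32 to 3.59.

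The calcium-regulated ATP-Mg carriers differed from one another in how they varied. Slc25a24 stood at 6.89, 6.59 and 6.78 in Control and 6.91, 6.90 and 7.22 in cKO. Its groups did not overlap, by a margin that shows only in the second decimal, and it differed by 0.25 (SE 0.17). That difference was 0.10 after quantile normalization and 0.15 without cKO 3. Slc25a25 had the widest span of the 36 tested genes, at 1.57 log2 units. Its values were 6.21, 7.11 and 5.54 in Control and 6.45, 5.82 and 5.74 in cKO, with both the highest and the lowest array in Control. The difference was -0.29 (SE 0.41, 95% interval from -1.27 to 0.70), and 0.13 without Control 2. Slc25a41 and Slc25a54 were below the filter. In the RefSeq gene table, Slc25a23 neighbours Slc25a41 and Slc25a24 neighbours Slc25a54, so in both adjacent pairs 1 gene was tested and its neighbour was below the filter. The same was true of the 2 other adjacent pairs, Slc25a5 with Slc25a43 and Slc25a47 with Slc25a29.

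Carriers of other nucleotides and cofactors numbered 8, all tested, with 6 higher and 2 lower means in cKO and a median difference of 0.078 (4 higher and a median of -0.046 after quantile normalization). Slc25a36 and Slc25a42, given above, were the only ones of the 8 with a difference of at least 1.5-fold or an unadjusted p under 0.05, each meeting 1 of these. Slc25a33, the other pyrimidine nucleotide carrier, was at 6.79, 7.32 and 6.50 in Control and 7.03, 7.17 and 6.80 in cKO. Its groups overlapped and it differed by 0.13 (SE 0.24), and whether it differed from Slc25a36 in this was not tested. Slc25a51, the NAD carrier, stood at 8.72, 8.90 and 8.65 in Control and 9.40, 8.67 and 8.54 in cKO. Here cKO 1 was high and cKO 3 was below the Control range, and the difference of 0.11 (SE 0.26) was -0.16 without cKO 1. Slc25a26, which imports S-adenosylmethionine, had values of 6.26, 6.40 and 6.22 in Control and 6.57, 6.25 and 6.08 in cKO, a difference of 0.0059 (SE 0.17) as deposited and -0.097 after quantile normalization. Slc25a32, a folate carrier, Slc25a16 and the peroxisomal Slc25a17 differed by 0.047, -0.033 and 0.24. The standard errors of these 3 were 0.22, 0.16 and 0.31.

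Di- and tricarboxylate carriers had 3 tested genes, all with higher means in cKO as deposited and 2 after quantile normalization. Slc25a11, the oxoglutarate-malate carrier of the malate-aspartate shuttle, was at 14.80, 15.07 and 14.67 in Control and 15.21, 15.07 and 14.75 in cKO, which overlap. It differed by 0.16 (SE 0.21), by 0.062 without cKO 1, 0.074 without Control 3, 0.27 without Control 2 and 0.29 without cKO 3. Slc25a10, the dicarboxylate carrier, was at 4.99, 5.02 and 4.96 in Control and 5.18, 5.09 and 5.11 in cKO. The groups did not overlap, and the difference was 0.14 (SE 0.11) as deposited and 0.058 after quantile normalization. Slc25a1, the citrate carrier that supplies cytosolic lipid synthesis, stood at 4.92, 5.09 and 4.86 in Control and 5.29, 4.79 and 5.01 in cKO. That difference was 0.073 (SE 0.16), and -0.059 without cKO 1.

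Amino acid carriers had 6 tested genes, of which Slc25a44, Slc25a38, Slc25a22 and Slc25a12 had higher and Slc25a13 and Slc25a15 lower means in cKO. Slc25a12, the aspartate-glutamate carrier of muscle and brain, stood at 15.00, 15.48 and 15.67 in Control and 15.10, 15.91 and 15.96 in cKO. Control 1 and cKO 1 were both low, and the difference of 0.27 (SE 0.31) was -0.13 in the low and 0.26 in the high range, and 0.083 without Control 1 and 0.55 without cKO 1. Array weights in limma gave 0.63 for Slc25a12, with an unadjusted p under 0.05 and an adjusted p of 0.329. The paralogs Slc25a12 and Slc25a13 thus had differences of opposite sign, and neither passed. Slc25a22, a glutamate carrier, was at 5.67, 5.52 and 5.71 in Control and 5.83, 6.0 and 5.75 in cKO, without overlap, and differed by 0.23 (SE 0.13). Slc25a38, the glycine carrier that feeds heme synthesis, was at 4.82, 4.90 and 4.79 in Control and 5.20, 4.91 and 4.94 in cKO. Its groups did not overlap either, and it differed by 0.18 (SE 0.13). The array cKO 1 was the highest, and without it the difference was 0.092.

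Slc25a20 carries acylcarnitines into the matrix for fatty acid oxidation. It was at 13.27, 12.86 and 12.61 in Control and 13.34, 13.05 and 13.07 in cKO, where Control 1 lay within the cKO range. The difference was 0.24 (SE 0.24, 95% interval from -0.32 to 0.81), and was 0.28 in the low and 0.45 in the high range. It was 0.42 without Control 1, 0.092 without Control 3, 0.15 without cKO 1 and 0.037 with array weights. The iron carriers were higher by less than their errors. Slc25a37, mitoferrin of erythroid cells and other tissues, was at 6.12, 5.66 and 6.12 in Control and 6.39, 5.99 and 6.03 in cKO, a difference of 0.17 (SE 0.19), or 0.019 without Control 2 and 0.048 without cKO 1. Slc25a28, the other mitoferrin, was at 6.28, 6.37 and 6.56 in Control and 6.58, 6.58 and 6.45 in cKO, a difference of 0.13 (SE 0.14). For both, the sign was positive in the low range (0.50 and 0.25) and negative in the high range (-0.11 and -0.048). Of 8 erythroid markers listed, only 2 had a feature of 1 symbol, and 1 of these, Alas2, was above the filter. Alas2 was at 6.83, 5.95 and 5.77 in Control and 6.07, 5.68 and 5.54 in cKO. Control 1 was the high array, and the difference of -0.42 (SE 0.30) was -0.10 without Control 1 and -0.74 with array weights.

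The glutathione carriers Slc25a39 and Slc25a40 had differences of 0.14 (SE 0.15) and 0.13 (SE 0.21). Slc25a39 stood at 6.65, 6.84 and 6.53 in Control and 6.89, 6.72 and 6.82 in cKO. Slc25a40 was at 5.91, 5.95 and 6.33 in Control and 6.53, 6.03 and 6.01 in cKO, and without cKO 1 its difference was -0.044. Both overlapped between groups. Slc25a30, a relative of the uncoupling proteins, was at 5.53, 5.71 and 5.46 in Control and 5.67, 5.79 and 5.77 in cKO, a difference of 0.18 (SE 0.13). Slc25a34, whose substrate is less settled, was at 6.80, 6.67 and 6.29 in Control and 6.84, 7.07 and 6.76 in cKO. Only cKO 3 lay within the Control range, and the difference was 0.30 (SE 0.19), or 0.15 without Control 3. Slc25a46 acts at the outer membrane in mitochondrial shape. It was at 12.64, 12.88 and 12.40 in Control and 12.98, 12.23 and 12.16 in cKO, so cKO 1 was the highest array and the other cKO arrays were the lowest. The difference was -0.19 (SE 0.28), and -0.45 without cKO 1. Slc25a47, known from liver, was at 5.79, 5.36 and 5.17 in Control and 5.89, 5.38 and 5.16 in cKO, a difference of 0.035 (SE 0.25) as deposited and -0.050 after quantile normalization. The 8 tested genes not given by array, Slc25a15, Slc25a16, Slc25a17, Slc25a27, Slc25a32, Slc25a35, Slc25a45 and Slc25a53, differed by -0.16 to 0.24.

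**Figure D2:**
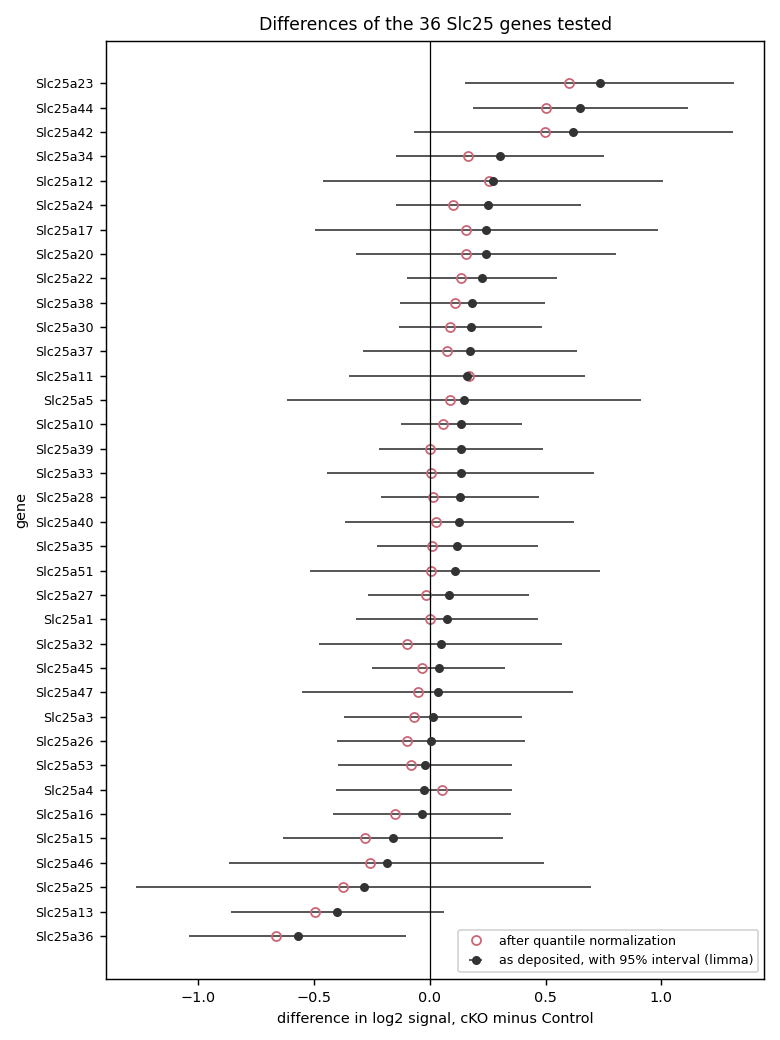
Difference in log2 signal, cKO minus Control (horizontal axis), for the 36 tested Slc25 genes in order of size, as deposited with 95% intervals from limma (filled points) and after quantile normalization (open points). The intervals of Slc25a36, Slc25a44 and Slc25a23 leave out 0, and 22 open points against 28 filled points lie above 0.

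Over the 36 tested genes, 28 had a higher and 8 a lower mean in cKO, with a median difference of 0.13. Over all features tested 65.8% were higher and the median was 0.074. After quantile normalization, which removes differences in the overall distribution of the arrays, 22 of the 36 were higher with a median of 0.011, against 49.1% and a median of -0.0038 over all features. The sign turned for 8 of the 36, namely Slc25a1, Slc25a3, Slc25a4, Slc25a26, Slc25a27, Slc25a32, Slc25a45 and Slc25a47. Differences of at least 1.5-fold were found for 3 of the 36 (Slc25a23, Slc25a44 and Slc25a42), against 5.54% of all features tested. Groups did not overlap for 7 of the 36, against 11.0% of all features. These were Slc25a10, Slc25a22, Slc25a23, Slc25a24, Slc25a38 and Slc25a44 above (8.95% of all features lay above) and Slc25a36 below (2.05% lay below). The median within-group SD was 0.22 for the 36 and 0.25 for all features tested. Among the substrate classes with at least 5 tested genes, the median difference was 0.078 for other nucleotides and cofactors, 0.21 for amino acids and 0.039 for carriers with other or unsettled substrates. After quantile normalization these medians were -0.046, 0.12 and -0.034, and 2 rather than 4 of the 5 genes of the last class were higher. Each class held genes of both signs.

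The array cKO 1, which had the highest median of the 6, was the highest array for 18 of the 36 tested genes and for 9 of the 10 below the filter. It was the highest array for 46.4% of all features tested. Without cKO 1, 22 of the 36 tested genes had a higher mean in cKO and their median difference was 0.055, while that of all features was -0.016. The 10 genes below the filter were Slc25a2, Slc25a14, Slc25a18, Slc25a21, Slc25a29, Slc25a31, Slc25a41, Slc25a43, Slc25a48 and Slc25a54. Their signals lay between 2.83 and 4.27 and their differences between -0.077 and 0.15, with 6 higher in cKO. None of the 36 passed the filter through arrays of 1 group only, and 35 exceeded the array median on all 6. Over all 46 genes, 34 were higher and the median difference was 0.10.

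**Figure D3:**
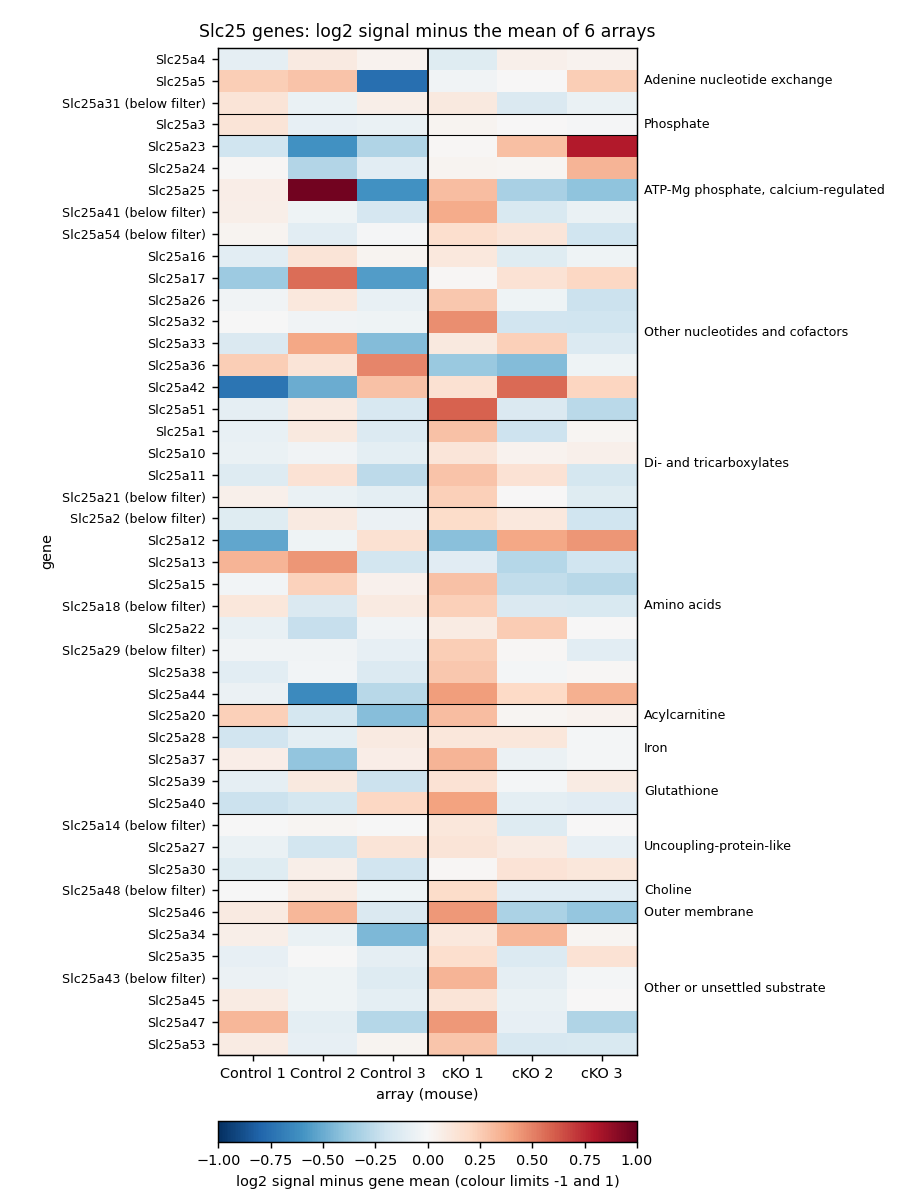
Log2 signal minus the gene's mean over the 6 arrays (colour, limits -1 and 1) for all 46 Slc25 genes in rows by substrate class and the 6 arrays in columns, with genes below the filter marked. The cKO 1 column is the highest of the row for 27 of the 46 genes, and the strongest single cells include Slc25a25 on Control 2 (7.11) and Slc25a5 on Control 3 (11.81).

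Each range of mouse numbers held 3 arrays, with cKO 1 against both low-numbered Controls and Control 3 against both high-numbered cKO mice. Of the 36 tested genes, 17 were higher in cKO in both ranges, 2 (Slc25a36 and Slc25a13) were lower in both, and 17 had opposite signs. The sign was the same in both ranges for 19 of the 36, or 52.8%, against 45.9% of all features tested. For the 7 genes whose groups did not overlap, that outcome was fixed by the lack of overlap. For the 36 the median difference was 0.21 in the low and 0.097 in the high range, against 0.26 and -0.040 for all features.

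**Figure D4:**
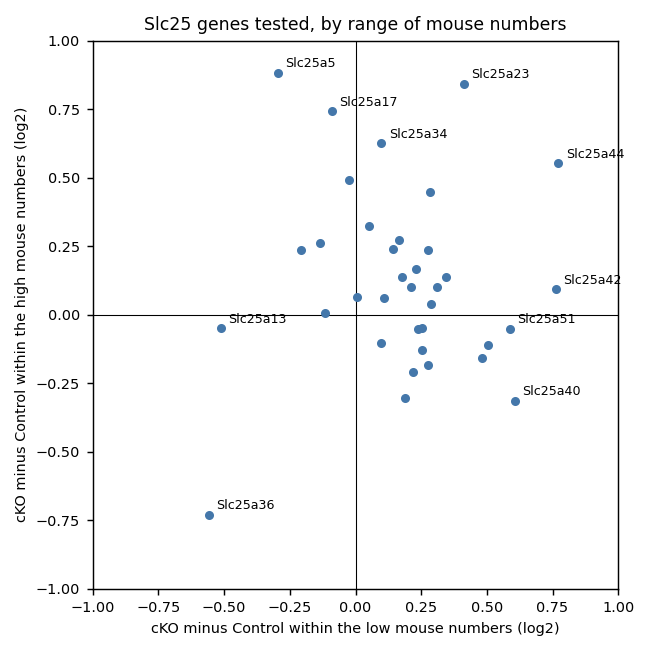
Difference in log2 signal, cKO minus Control, within the low (horizontal axis, 1 cKO and 2 Control arrays) and within the high mouse numbers (vertical axis, 2 cKO and 1 Control arrays), 1 point for each of the 36 tested Slc25 genes. Slc25a36 lies farthest to the lower left, at -0.56 and -0.73, and Slc25a13 is also below 0 in both ranges, at -0.51 and -0.050. Slc25a44 and Slc25a23 lie at the upper right, and Slc25a5 and Slc25a40 have opposite signs.

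Genes that work beside the carriers were counted from lists, and 0 passed an adjusted p of 0.05 in limma. The shares to set beside these counts are those of all features tested, of which 65.8% were higher and 4.50% had an unadjusted p under 0.05. Family members under other symbols had 3 tested genes, all with higher means in cKO as deposited and 2 after quantile normalization. The uncoupling protein gene Ucp3 differed by 0.42 (SE 0.55) and Mtch2, an outer membrane relative, by 0.12 (SE 0.21), with 0 of 3 at an unadjusted p under 0.05. Ucp3 ranged from 7.92 to 9.36 in Control and from 8.0 to 9.86 in cKO. The carnitine shuttle had 5 of 5 tested genes higher, with a median of 0.23, and 5 were higher after quantile normalization with a median of 0.14. Cpt1a, an outer membrane carnitine palmitoyltransferase and the only 1 of the 5 with an unadjusted p under 0.05, was at 7.48, 7.12 and 7.30 in Control and 7.56, 7.75 and 7.95 in cKO, a difference of 0.46 (SE 0.18, limma adjusted p = 0.999). Crat, carnitine acetyltransferase, differed by 0.40 (SE 0.20), and both genes had groups that did not overlap. Cpt1a was at an unadjusted p above 0.05 in 9 of 18 settings, among them quantile normalization (0.32) and centring on array medians (0.40).

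ATP synthase, which uses the phosphate and ADP that the carriers bring in, had 5 tested genes higher and 10 lower, with a median of -0.023. Its subunit gene Atp5d was at 11.71, 11.42 and 11.45 in Control and 12.02, 11.96 and 12.04 in cKO, without overlap. Atp5d differed by 0.48 (SE 0.18) and was the only 1 of 15 with an unadjusted p under 0.05, which it kept in 9 of 18 settings. It lost that p after quantile normalization (0.38), after centring (0.42), with the replicate block and without any 1 array other than Control 1. Atp5l differed by -0.44 (SE 0.24), by -0.29 without cKO 1 or Control 2, and by -0.15 as the mean of all features of the gene. The NADH shuttle enzymes, partners of Slc25a11, Slc25a12 and Slc25a13, had 4 of 6 higher and a median of 0.034, with Got2 at 0.34 (SE 0.17) and Gpd2 at 0.17 (SE 0.25). The pyruvate carrier and outer membrane channels had 1 of 4 higher (2 after quantile normalization), namely Vdac2 at 0.32 (SE 0.19), with Mpc1 at -0.13 (SE 0.17). The calcium uniporter list had 3 of 5 higher (1 after quantile normalization), with Micu2 at 0.32 (SE 0.30) and Mcu at 0.059 (SE 0.24). Micu2 was at 14.05 on cKO 1 and between 13.01 and 13.26 on the other 5 arrays, and without cKO 1 it differed by 0.0047. Among mitochondrial ABC transporters and sideroflexins 6 of 8 were higher, near the share of all features, and 2 had an unadjusted p under 0.05, the serine transporter relatives Sfxn3 at 0.57 (SE 0.17) and Sfxn4 at -0.41 (SE 0.14). Sfxn3 kept that p in 18 of 18 settings and Sfxn4 in 14 of 17. Groups did not overlap for 4 of the 8, against 11.0% of all features tested. Creatine kinases had 2 of 3 higher (1 after quantile normalization), with Ckmt2 at -0.27 (SE 0.18) and Ckb at 0.048 (SE 0.12). Heme and iron-sulfur synthesis had 5 of 11 higher, with Ppox at 0.25 (SE 0.17) and Alas2 as given above, and 3 of 11 were higher after quantile normalization.

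Markers of other cells in the dissected muscle were counted the same way, with 0 at an adjusted p under 0.05 in limma, and the shares of all features are again 65.8% higher, 4.50% at an unadjusted p under 0.05 and 3.70% higher at that p. The tendon list had 7 of 7 tested genes higher (6 after quantile normalization), 5 of them at an unadjusted limma p under 0.05, with array means from 6.0 to 6.93 in Control and from 7.38 to 7.96 in cKO. The white adipocyte list had 4 of 6 higher, 2 of them at that p (6.38 to 6.49 in Control, 6.44 to 6.97 in cKO), macrophages 8 of 8 (5.59 to 6.22 and 5.95 to 6.78) and smooth muscle 4 of 4 (7.77 to 8.27 and 8.10 to 8.61). Endothelial markers had 0 of 6 higher and 1 lower at that p (9.63 to 10.76 in Control, 9.76 to 9.89 in cKO), with a median difference of -0.64 in the low and 0.30 in the high number range. Array means of the groups overlapped for adipocytes, macrophages, smooth muscle and endothelium, and not for tendon. Fibroblast markers had 3 of 5 higher, Schwann cell markers 1 of 3 and brown adipocyte markers 1 of 3, with Ucp1 below the filter at 3.16 to 3.45. Fast fibre markers had 4 of 9 higher and 5 lower, with array means of 15.52 to 16.44 in Control and 15.95 to 17.52 in cKO, the highest being cKO 2. Mice differed widely in some of them. Actn3 ran from 7.97 on Control 1 to 15.67 on cKO 2, and Myh4 from 11.72 to 16.88 on the same arrays. Pvalb ran from 7.13 on cKO 3 to 11.87 on cKO 2. Tnnt3, Tnnc2 and Atp2a1, at 19.58 to 19.85, were near the array maxima, where signals can vary little. Slow fibre markers had 7 of 9 higher and 2 lower, at 16.08 to 16.26 in Control and 16.15 to 16.23 in cKO. Casq2, 1 of the 2 lower, differed by -0.32 (SE 0.19) without overlap. Atp2a2, at 19.67 to 19.84, and Myh7, at 19.20 to 19.38, were near the array maxima. The close means therefore do not show equal slow fibre content. The part of these cells and fibres in the values of Slc25a44, Slc25a23 and Slc25a36 was not tested.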

How the data were processed

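RNA of 6 soleus samples (100 ng each) was labelled with the Affymetrix WT Plus kit, per the labels' protocols. The deposited table gave 1 value per feature and array, read as log2 from its range of 1.92 to 19.93. The log base, normalization, software and genome build are not given in the sources used here. Features without any value (6732 of 72688) were left out. Symbols came from the platform annotation and were updated by Entrez identifier through the RefSeq gene table (GRCm38.p6, names and neighbours only). RefSeq promoters of that build gave the sequences. A symbol repeated for 1 feature counts once.

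Features above the median of their array on at least 3 arrays (33334) entered a limma fit (version 3.58.1, R 4.3.3) with a variance trend in eBayes and group as the only term; tests were two-sided, with Benjamini-Hochberg adjustment over all of them. The fit was tested on simulated data. Tables used Python 3.11.15, pandas 2.3.3, scipy 1.17.1 and matplotlib 3.10.9. Levels are not compared between genes. The number of arrays limits precision. Each mouse is 1 replicate, with groups from the sample titles.

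The members and lists were chosen with earlier results of these data known. Given by array are the 14 tested Slc25 genes with the smallest unadjusted p and a fixed set of carriers with well known roles, where they were tested. From each comparison list the 2 genes with the smallest p are named, most by their difference alone. Other tested Slc25 genes are named by their differences.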

Additional observations from a re-analysis of the deposited data

How the results depend on the processing

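The number of arrays limits what can be called, since 95% intervals of single genes reached 0.26 to 0.98 log2 units to either side. No Slc25 gene (0) passed an adjusted p of 0.05 under the main settings or any alternative run, and 22 to 34 were higher in cKO. These counts do not share 1 denominator. Without a filter 34 of all 46 genes were higher, and a filter at the 75th percentile left 29 genes. Of 792 values of 47 named genes under 17 alternatives, 743 kept their sign and 49 did not. The cause of the changes was not tested.

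Slc25 genes with an unadjusted limma p under 0.05 numbered 3, but 1 after quantile normalization, 6 with array weights, 1 when the number range was a block after quantile normalization, and 2 to 4 with an array left out. Over all 36 tested Slc25 genes, the median difference of 0.1298 became 0.0108, 0.0390 and 0.0582 in those settings. With an array left out this median was 0.0546 (without cKO 1) to 0.1551. Features past an unadjusted p of 0.01 and 1.5-fold numbered 223, but 130 with centring, 823 with array weights and 95 to 960 with an array left out. Features past an adjusted p of 0.05 numbered 0 to 14, the 14 without Control 3. Control and cKO arrays of the same replicate number had correlations of 0.13, -0.20 and 0.21, and with the replicate block the counts were 3, 28 higher and 217. These correlations are of deviations from the group mean. Such deviations cancel within a group, which forces mixed signs, so the correlations cannot show whether the replicate numbers pair the mice. Control and cKO arrays of the same number range gave 0.13, 0.33, 0.39 and 0.21. Those of different ranges gave -0.28, 0.084, -0.20, -0.28 and -0.41. The ranges are unevenly spread over the groups, so the group difference is partly confounded with number range.

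Signs turned for these genes. Quantile normalization gave Ckb -0.0412, Mcu -0.0124, Slc25a1 -0.0006, Slc25a26 -0.0971, Slc25a3 -0.0679, Slc25a4 0.0540 and Slc25a47 -0.0496. Centring gave Ckb -0.0098, Slc25a26 -0.0523, Slc25a3 -0.0440 and Slc25a47 -0.0227. Array weights gave Ckb -0.0267, Slc25a1 -0.0805, Slc25a26 -0.0663, Slc25a3 -0.0390, Slc25a4 0.0538, Slc25a47 -0.2135 and Slc25a51 -0.0876. The range block gave Mcu -0.0784, Slc25a25 0.0148 and Slc25a46 0.0039. Quantile normalization with that block gave Ckb -0.0263, Mcu -0.1414, Mtch2 -0.0077, Slc25a26 -0.0127, Slc25a28 -0.0179, Slc25a3 -0.0362 and Slc25a4 0.0204. With an array left out the values ran from -0.0181 to 0.4007 for Gpd2, -0.0631 to 0.2666 for Mcu, -0.0152 to 0.9142 for Ucp3, -0.0592 to 0.1938 for Slc25a1, -0.0236 to 0.0836 for Slc25a3, -0.0750 to 0.0275 for Slc25a4, -0.1922 to 0.3312 for Slc25a5, -0.6592 to 0.1261 for Slc25a25, -0.1284 to 0.1175 for Slc25a26, -0.0529 to 0.3587 for Slc25a33, -0.0436 to 0.2631 for Slc25a40, -0.1709 to 0.2097 for Slc25a47 and -0.1562 to 0.2733 for Slc25a51.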
